A study of Homo sapiens with 20 samples.

Results

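Mitochondrial carriers of the SLC25 family are described here through the maturation of HUDEP-2 cells. HUDEP-2 cells, immortalized erythroid progenitors obtained from umbilical cord blood, were used with a WT genotype, so all libraries come from 1 line. The members are the genes whose symbol is SLC25A followed by a number and that have at least 1 curated RefSeq mRNA (an identifier starting with NM_) in the deposited tables. SLC25A37 and SLC25A38 were kept out by this rule, which used no expression value, and 46 of 46425 gene symbols remained, out of 48 SLC25A symbols. Total RNA was taken on day 0 and after 1, 2, 3, 4, 5, 6, 7, 8 and 12 days of erythroid differentiation, with 2 libraries on each of the 10 days. Before differentiation the cells grew in StemSpan SFEM with EPO, SCF, dexamethasone and doxycycline. The differentiation medium was IMDM with holo-transferrin, human AB serum, heparin, insulin, L-glutamine, EPO, SCF and doxycycline, from which SCF was left out on day 6 and doxycycline on day 8. All groups therefore carried EPO, and no untreated arm was sampled at the later days, so that time in culture, the change of medium with its loss of dexamethasone, and differentiation cannot be told apart. The study assigns day 0 to proerythroblasts, days 4 to 6 to basophilic erythroblasts, day 8 to polychromatic erythroblasts and day 12 to orthochromatic erythroblasts and reticulocytes.

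SLC25 proteins sit mostly in the inner mitochondrial membrane and exchange metabolites between the cytosol and the matrix: ADP for ATP, phosphate, keto acids, amino acids, cofactors, iron and glutathione. Erythroid cells depend on this traffic because heme is begun and finished in the matrix and iron-sulfur clusters are built there. At the end of maturation reticulocytes discard their mitochondria by mitophagy.

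Each library held 52131713 to 70358198 counts, so that a count of 0 allows up to 3 counts, or 0.0426 to 0.0575 CPM (the count divided by the library total, on the usual CPM scale). This limit covers counting error only. One library of each day comes from tables of separate days and the other from a table of all days, and pairs of values below are given in that order. The tables hold 3 sets of day 0 columns for the 2 day 0 samples, and which set is the second sample is not resolved. The set deposited beside the separate-day library of day 12 was not used, so comparisons with day 0 rest on that choice. The labels number the replicates but the table columns do not, and nothing says that the 2 libraries of a day came from separate cultures, so p-values measure the spread between libraries, which may be technical. The libraries of days 7 and 8 from the separate-day tables stood apart, with 18.5% and 17.5% of their counts in ribosomal RNA genes against 1.03% to 4.08% in the other 18 libraries. Without these 2 libraries 15 of the 67 calls on counts of the members described below were lost, and each of the 15 is named. The erythroid label fitted its markers. The 8 erythroid markers (HBA1, HBB, HBG1, ALAS2, KLF1, SLC4A1, TFRC and EPOR) summed to 26264 to 28598 TPM (a level corrected for transcript length and scaled to a fixed sum in each library) on day 0 and to 442616 to 483780 TPM on day 12. The 12 markers of other blood cells summed to at most 71.8 TPM in any library. Their sums ran from 12.6 to 70.7 TPM in the day 0 libraries and from 0.922 to 1.84 TPM on day 12. On day 0, 7 of the 12 held 3 counts or fewer in both libraries, and the rest were detected. Among the 7 were PF4, at 0 counts throughout, and MPO, at 3 counts or fewer in any library. The 4 markers of macrophages and stroma (CD68, CD163, COL1A1 and VIM) summed to 1307 to 1309.7 TPM on day 0, nearly all of it VIM. They summed to 3.79 to 6.52 TPM on day 12, and CD163 and COL1A1 reached at most 7 and 4 counts. The VIM level, and the share of counts taken by globin genes, which ran from 0.819% to 33.7%, moved with day as the carriers did, and their part in the results was not tested. In bulk RNA, fewer cells of a type and less RNA per cell cannot be told apart.

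The composition of carrier mRNA turned over during the 12 days, and at the end 1 gene made up most of it. SLC25A39, a mitochondrial glutathione transporter, contributed 6.05 and 8.06% of the members' summed TPM on day 0, 27.4 and 19.9% on day 4, 45.1 and 35.6% on day 8 and 76.2 and 79% on day 12. SLC25A5 and SLC25A6, the main ADP/ATP carriers here, together contributed 59.5 and 53.6% on day 0 and 14.5 and 13.9% on day 12. In TPM the family as a whole changed far less than its parts, with a summed level of 2230 to 3230 TPM over the 20 libraries. TPM is relative to a fixed sum, and globin genes took 28.2 and 33.7% of all counts on day 12. The members held 0.275 and 0.282% of all counts on day 0 and 0.313 and 0.366% on day 12. The TMM scaling used below multiplies library totals by 1.17 and 1.17 on day 0 and 0.544 and 0.464 on day 12. In scaled counts the family total is therefore higher still on day 12 against day 0. Without SLC25A39 the remaining 45 members summed to 2590 and 2634 TPM on day 0, to 1350 and 1772 TPM on day 8, and to 530 and 503 TPM on day 12. SLC25A3, SLC25A5 and SLC25A6, which held much of that sum, were not called at any step in scaled counts, as described below. SLC25A6 ranked highest by mean TPM on days 0 to 5 and SLC25A39 on days 6, 7, 8 and 12, although the libraries of these genes overlapped on days 4, 5 and 6, so that their order on those days was not resolved.

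Most carriers were present at modest levels and became scarce in TPM at the end. On day 0, 34 members exceeded 1 TPM in both libraries and 26 exceeded 10 TPM, and the median member mean was 14.6 TPM. On day 8 these numbers were 32, 19 and 6.59 TPM, and on day 12 they were 23, 7 and 1.72 TPM. Genes in general also fell in TPM at this last step. The median change in log2(TPM + 1) was -0.68 over all genes tested and -1.33 over the members tested. In scaled counts 12 members were called higher and 20 lower at that step. The 7 members over 10 TPM in both day 12 libraries were SLC25A1, SLC25A3, SLC25A5, SLC25A6, SLC25A28, SLC25A39 and SLC25A42. A group of 5 members stayed too low for a test: SLC25A2, SLC25A27, SLC25A31, SLC25A41 and SLC25A52 reached at most 3, 5, 7, 8 and 10 counts in any library. SLC25A31 is the testis-type ADP/ATP carrier and SLC25A2 the second ornithine carrier, and SLC25A52 is a near copy of the NAD carrier SLC25A51. The other 41 members passed edgeR's filter on low counts and were tested.

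The 41 members were compared at 4 steps in a single edgeR fit of all 20 libraries (quasi-likelihood F test on counts with TMM scaling, Benjamini-Hochberg adjustment over 16784 genes). Between day 0 and days 4 to 6, 4 members rose and 7 fell at an adjusted p under 0.05, against 7.38% and 9.22% of all genes tested. Between days 4 to 6 and day 8, 4 rose and 5 fell, with 11.9% and 10.8% of all genes. Between day 8 and day 12, 12 rose and 20 fell, with 23.8% and 33.4% of all genes. Between day 0 and day 8, 6 rose and 13 fell, with 17.7% and 19.4% of all genes. As shares of the 41 members these counts were 9.76%, 9.76%, 29.3% and 14.6% in the rising direction and 17.1%, 12.2%, 48.8% and 31.7% in the falling one, and the differences from all genes were not tested. All changes below are log2 fold changes of the later against the earlier days from this fit, with their standard error (SE), unless TPM + 1 is named. The members whose libraries did not overlap between the days compared, in TMM-scaled counts, numbered 8 higher and 13 lower (17.1% and 20.2% of all genes), 7 and 12 (18.7% and 19.8%), 14 and 21 (33.2% and 41.3%) and 12 and 19 (33.3% and 34.8%). The median log2 fold change of the members was -0.02, -0.15, -0.53 and -0.20, beside -0.01, 0.01, -0.20 and 0.00 for all genes tested. Over the 10 days together, 34 of the 41 members varied with day, against 66% of all genes. The 7 that did not pass that test were SLC25A3, SLC25A5, SLC25A6, SLC25A18, SLC25A26, SLC25A30 and SLC25A51.

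The scale of the comparison matters for this family. TMM assumes that most genes do not change, and replacing it with library totals alone would lower every log2 fold change by 0.83 for day 12 against day 8, by 0.32 for day 8 against days 4 to 6, by 0.39 for day 8 against day 0 and by 0.07 for days 4 to 6 against day 0. On the TPM scale, where globin mRNA takes a growing part of a fixed sum, limma on log2(TPM + 1) called 3 members higher and 10 lower at days 4 to 6 against day 0 (4.69% and 14.3% of all genes). It called 2 higher and 22 lower at day 8 against days 4 to 6 (3.89% and 31.7%), 3 higher and 27 lower at day 12 against day 8 (7.87% and 53.2%), and 3 higher and 24 lower at day 8 against day 0 (7.08% and 39.5%). On this scale the median over all genes tested was itself -0.09, -0.23, -0.68 and -0.34 in that order, and that of the members -0.17, -0.49, -1.33 and -0.68. Changes that were called in the same direction on both scales numbered 3 higher and 6 lower, 2 and 5, 3 and 19, and 3 and 13 for the 4 comparisons in the order in which they were introduced.

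Of the 3 carriers of metal and glutathione, in TPM 1 rose over the whole course, 1 stayed level and 1 was lost at the end. In counts, 2 rose and none fell from day 0 to day 8 (17.7% and 19.4% of all genes). From day 8 to day 12, 2 rose and 1 fell in counts (23.8% and 33.4% of all genes). SLC25A39 (hg38 chr17:44319625-44324870) stood at 167 and 231 TPM (day 0), 390.4 and 397 (day 1), 492 and 464 (day 2), 659 and 579.7 (day 3), 780.1 and 624 (day 4), 859 and 724 (day 5), 931 and 689 (day 6), 1131 and 1117 (day 7), 1109 and 979 (day 8) and 1699.7 and 1897 (day 12). Every library after day 0 lay above both day 0 libraries, and the day 12 libraries lay above all others. It rose by 2.11 ± 0.23 (SE, edgeR adjusted p = 6.01e-05) from day 0 to days 4 to 6. It rose again by 0.92 ± 0.19 (SE, edgeR adjusted p = 0.00531) from there to day 8, and by 2.21 ± 0.26 (SE, edgeR adjusted p = 6.37e-06) from day 8 to day 12. The middle step lost its call without the library of day 8 from the separate-day tables, at 0.66 (edgeR adjusted p = 0.182), and without both separate-day libraries of days 7 and 8, at 0.67 (edgeR adjusted p = 0.173). Without the latter libraries the change from day 0 to day 8 was 2.80 (edgeR adjusted p = 7.35e-05), beside 3.03 with them. SLC25A40 (hg38 chr7:87833568-87876360), the close relative of SLC25A39 in glutathione transport, followed another course. It stood at 12.1 and 14.7 TPM (day 0), 14.6 and 11.9 (day 4), 15.1 and 15.3 (day 8) and 0.447 and 0.0778 (day 12), so that the day 12 libraries lay far below all earlier ones. None of its changes up to day 8 passed the test, and it then fell by 4.52 ± 0.43 (SE, edgeR adjusted p = 9.08e-07). SLC25A40 was thus 6.76 and 6.00% of the summed TPM of the pair on day 0 and 0.0263 and 0.0041% on day 12.

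SLC25A28 (mitoferrin-2, hg38 chr10:99610522-99659507), which brings iron into mitochondria in most tissues, had a nearly level course in TPM. It stood at 19.3 and 19.4 TPM (day 0), 28.8 and 23 (day 1), 22.9 and 21.9 (day 4), 23.8 and 21.9 (day 8) and 21.3 and 20.2 (day 12), with all 20 libraries between 19.3 and 28.8 TPM. Relative to other genes by TMM it rose from day 0 to day 8 by 0.83 ± 0.18 (SE, edgeR adjusted p = 0.00266). From day 8 to day 12 its change in counts was 1.33 ± 0.18 (SE, edgeR adjusted p = 2.26e-05), called higher, and that in TPM + 1 was -0.13, of the opposite sign. The step from days 4 to 6 to day 8, 0.48 ± 0.14 (SE, edgeR adjusted p = 0.0273), lost its call when any of 6 single libraries was left out. The value was 0.25 without the separate-day library of day 8, and 0.44 to 0.49 without the separate-day library of day 4 or 5 or the all-day library of day 4, 5 or 6. Without the separate-day libraries of days 7 and 8 together it was 0.25 (edgeR adjusted p = 0.473), not called.

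The promoter sequences of members that rose early are shown because these genes were called higher at the same step, between day 0 and days 4 to 6. The 4 such members were SLC25A39, SLC25A34, SLC25A42 and SLC25A21. The letters are the bases before the annotated start in RefSeq (GRCh38.p14), 5′ to 3′ on the strand of the gene, cut where a longer transcript of the same gene begins. That of SLC25A34 is not shown because the window lies inside a longer deposited transcript. Capitals mark GATA motifs, which here are AGATAA and TGATAA as well as AGATAG and TGATAG, and the motif CACCC, the core of sites that KLF1 can bind, on either strand.
SLC25A39: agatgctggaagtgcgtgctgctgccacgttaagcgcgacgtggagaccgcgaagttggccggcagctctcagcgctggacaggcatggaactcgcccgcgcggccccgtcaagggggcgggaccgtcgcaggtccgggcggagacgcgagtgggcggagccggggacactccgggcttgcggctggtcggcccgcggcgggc
SLC25A42: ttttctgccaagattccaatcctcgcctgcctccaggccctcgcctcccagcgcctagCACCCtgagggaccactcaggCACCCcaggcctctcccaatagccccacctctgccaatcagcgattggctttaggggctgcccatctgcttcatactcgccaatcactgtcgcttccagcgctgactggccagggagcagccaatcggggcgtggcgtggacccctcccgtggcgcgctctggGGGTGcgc
SLC25A21: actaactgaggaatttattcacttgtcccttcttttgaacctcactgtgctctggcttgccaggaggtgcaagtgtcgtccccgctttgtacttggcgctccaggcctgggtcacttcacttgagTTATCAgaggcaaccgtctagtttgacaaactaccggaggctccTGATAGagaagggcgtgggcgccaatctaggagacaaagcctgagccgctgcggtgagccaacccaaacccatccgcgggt
These stretches are 203, 250 and 250 bases long. They lie at chr17:44324871-44325073, minus strand (SLC25A39), at chr19:19063744-19063993, plus strand (SLC25A42) and at chr14:37172607-37172856, minus strand (SLC25A21), where the antisense gene SLC25A21-AS1 also lies. SLC25A21 held 2 GATA motifs, starting 125 and 81 bases before the start, and SLC25A42 held 3 CACCC motifs, while SLC25A39 held neither motif. Of the 39 members with a RefSeq promoter of 250 bases, 4 (10.3%) held a GATA motif and 18 (46.2%) a CACCC motif. Among all 27305 promoters of this length the shares were 22.9% and 53.7%. A match describes letters only, and the absence of one says nothing about the factor.

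Carriers of nucleotides and phosphate included the most abundant members of day 0. Of the 9 tested, none rose and 4 fell in counts from day 0 to day 8 (17.7% and 19.4% of all genes). From day 8 to day 12, 2 rose and 3 fell (23.8% and 33.4% of all genes). SLC25A5 (ADP/ATP carrier 2, hg38 chrX:119468444-119471396) stood at 656 and 708 TPM (day 0), 555 and 677 (day 4), 421 and 515 (day 8) and 166 and 164 (day 12). SLC25A6 (ADP/ATP carrier 3) stood at 984 and 827 TPM (day 0), 733 and 934 (day 4), 417 and 579 (day 8) and 157 and 169 (day 12). SLC25A3, the phosphate carrier, stood at 150.4 and 183 TPM (day 0), 123.3 and 145 (day 4), 84.7 and 109 (day 8) and 35.1 and 36.8 (day 12). In TPM the day 12 libraries of these genes lay below all earlier libraries, whereas in TMM-scaled counts no step passed the test for any of them. From day 8 to day 12 the change of SLC25A5 was -0.04 ± 0.15 (SE, edgeR adjusted p = 0.858), beside -1.49 in TPM + 1. For SLC25A6 it was -0.13 ± 0.18 (SE, edgeR adjusted p = 0.569), beside -1.59. For SLC25A3 it was -0.06 ± 0.16 (SE, edgeR adjusted p = 0.776), beside -1.39. SLC25A4 (ADP/ATP carrier 1, the form of heart and muscle) was scarcer and fell at every step. It stood at 12.6 and 12 TPM (day 0), 7.01 and 7.72 (day 4), 5.03 and 6.23 (day 6), 1.97 and 2.78 (day 8) and 0.132 and 0.071 (day 12), without overlap between the days compared. It fell by 0.76 ± 0.15 (SE, edgeR adjusted p = 0.00346) up to days 4 to 6, fell by 1.03 ± 0.17 (SE, edgeR adjusted p = 0.00131) from there to day 8 and fell by 3.09 ± 0.22 (SE, edgeR adjusted p = 7.00e-08) at the last step. The first of these lost its call without the separate-day library of day 0, at -0.68 (edgeR adjusted p = 0.0698). SLC25A4 made up 0.762 and 0.775% of the summed TPM of the ADP/ATP carriers on day 0 and 0.0407 and 0.0213% on day 12, and SLC25A5 39.7 and 45.8% and 51.5 and 49.2%.

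The ATP-Mg/phosphate carriers, which set the adenine nucleotide pool of the matrix, were led by SLC25A25. It stood at 15 and 16.4 TPM (day 0), 10.5 and 12.6 (day 8) and 2.24 and 1.42 (day 12), and fell by 1.27 ± 0.20 (SE, edgeR adjusted p = 1.15e-04) from day 8 to day 12, where its antisense gene held more counts than it did. SLC25A23 stood at 5.62 and 15.9 TPM (day 0), so the 2 libraries differed widely, and at 0.827 and 2.75 TPM (day 8) and 0.0681 and 0.0685 (day 12). It fell by 3.08 ± 0.66 (SE, edgeR adjusted p = 0.00121) from day 8 to day 12. It was also called lower from day 0 to day 8, -2.00 ± 0.57 (SE, edgeR adjusted p = 0.0142). The call did not hold without the all-day library of day 0, at -1.15 (edgeR adjusted p = 0.177), and without the separate-day library of day 8, at -1.46 (edgeR adjusted p = 0.133). Without the separate-day libraries of days 7 and 8 that change was -1.43 (edgeR adjusted p = 0.131). SLC25A24 was scarce from the start. It held 74 and 184 counts on day 0, 32 and 22 on day 4, 0 and 11 on day 8 and 7 and 0 on day 12, and the direction from day 8 to day 12 was opposite in the separate-day and the all-day library. It was called lower from day 0 to days 4 to 6, -2.53 ± 0.73 (SE, edgeR adjusted p = 0.031). That call was lost when any 1 of the 8 libraries compared was left out, with changes from -2.99 to -1.86. It was also called lower from day 0 to day 8, -4.04 ± 1.15 (SE, edgeR adjusted p = 0.0148). This did not hold without the all-day library of day 0, at -3.36 (edgeR adjusted p = 0.0729), the separate-day library of day 8, at -3.04 (edgeR adjusted p = 0.0715), or the separate-day libraries of days 7 and 8 together, at -3.01 (edgeR adjusted p = 0.0800). Of the pyrimidine nucleotide carriers, SLC25A33 stood at 9.59 and 11.6 TPM (day 0), 3.17 and 3.88 (day 8) and 3.47 and 3.46 (day 12). It fell by 1.0 ± 0.19 (SE, edgeR adjusted p = 0.00132) from day 0 to day 8. The part of this between days 4 to 6 and day 8, -0.72, was called but lost its call without the separate-day library of day 8, at -0.69 (edgeR adjusted p = 0.138), or those of days 7 and 8, at -0.68 (edgeR adjusted p = 0.145). From day 8 to day 12 it was called higher in counts, 1.39 (edgeR adjusted p = 3.81e-05), while its change in TPM + 1 was -0.014. SLC25A36 likewise was called higher at that step in counts, 0.93 (edgeR adjusted p = 0.00515), with a change of -0.42 in TPM + 1. The call on counts was lost without the all-day library of day 8, at 0.73 (edgeR adjusted p = 0.0679), or the separate-day library of day 12, at 0.47 (edgeR adjusted p = 0.119).

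Of the 7 cofactor carriers tested, 2 rose and 3 fell in counts from day 0 to day 8 (17.7% and 19.4% of all genes). From day 8 to day 12, 2 rose and 1 fell (23.8% and 33.4% of all genes). SLC25A42 (hg38 chr19:19063994-19113030), which carries coenzyme A into the matrix, stood at 7.7 and 11.1 TPM (day 0), 11.2 and 20.5 (day 3), 19.9 and 25.2 (day 6), 36.1 and 42.9 (day 7), 37.9 and 40.6 (day 8) and 32.5 and 24 (day 12). Its libraries of days 4 to 6 lay above those of day 0, and those of day 8 above days 4 to 6. It rose by 1.29 ± 0.24 (SE, edgeR adjusted p = 0.00269) to days 4 to 6 and then by 1.37 ± 0.21 (SE, edgeR adjusted p = 8.83e-04) to day 8. At day 8 it was 2.66 ± 0.29 (SE, edgeR adjusted p = 1.97e-05) above day 0. The first of these lost its call without the separate-day library of day 0, at 1.09 (edgeR adjusted p = 0.0667). From day 8 to day 12 it was called higher in counts, 0.93 (edgeR adjusted p = 0.00992), while its change in TPM + 1 was -0.47. The call on counts was lost without the all-day library of day 8, at 0.83 (edgeR adjusted p = 0.079).

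SLC25A32, the folate carrier, stood at 70.3 and 99.6 TPM (day 0), 24 and 43.2 (day 4), 10.8 and 16.7 (day 8) and 9.66 and 5.64 (day 12). It fell by 1.37 ± 0.31 (SE, edgeR adjusted p = 0.00838) from day 0 to days 4 to 6, a call lost without the all-day library of day 0, at -1.14 (edgeR adjusted p = 0.109). Up to day 8 it fell by 2.05 ± 0.42 (SE, edgeR adjusted p = 0.00209). The peroxisomal carrier SLC25A17 stood at 47.1 and 58.8 TPM (day 0), 25.1 and 37.7 (day 8) and 6.52 and 4.18 (day 12) and in counts fell by 1.13 ± 0.15 (SE, edgeR adjusted p = 2.29e-05) at the last step only. The S-adenosylmethionine carrier SLC25A26 stood at 16.5 and 20.1 TPM (day 0), 6.94 and 9.78 (day 8) and 2.85 and 2.5 (day 12). It fell by 0.53 ± 0.17 (SE, edgeR adjusted p = 0.0299) from day 0 to day 8, although it did not pass the test over all days (edgeR adjusted p = 0.0516). That call was lost without the separate-day or the all-day library of day 0, at -0.61 (edgeR adjusted p = 0.0584) and -0.44 (edgeR adjusted p = 0.16). It was also lost without the separate-day library of day 8, at -0.43 (edgeR adjusted p = 0.194), or those of days 7 and 8, at -0.40 (edgeR adjusted p = 0.223). SLC25A16, a carrier tied to the coenzyme A pool, stood at 5.44 and 7.18 TPM (day 0) and 4.95 and 6.77 (day 8). It was called higher in counts between them, 0.64 (edgeR adjusted p = 0.00905), with -0.093 in TPM + 1. The call on counts was lost without the all-day library of day 0, at 0.61 (edgeR adjusted p = 0.0602). The NAD carrier SLC25A51 stood at 13.1 and 21.8 TPM (day 0), 12.8 and 18.2 (day 8) and 3.53 and 3.02 (day 12), and no step passed the test on counts.

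Of the 7 amino acid carriers tested, none rose and 4 fell in counts from day 0 to day 8 (17.7% and 19.4% of all genes). From day 8 to day 12, 1 rose and 5 fell (23.8% and 33.4% of all genes). SLC25A12 and SLC25A13 are the aspartate/glutamate carriers of the malate-aspartate shuttle. SLC25A12 stood at 10.4 and 14.7 TPM (day 0), 6.99 and 8.35 (day 4), 1.39 and 2.47 (day 8) and 0.025 and 0 (day 12), with 5 and 0 counts in the last. It fell by 2.11 ± 0.43 (SE, edgeR adjusted p = 0.00189) from day 0 to day 8 and fell by 5.73 ± 0.63 (SE, edgeR adjusted p = 4.02e-06) from day 8 to day 12. Its change from days 4 to 6 to day 8, -1.39, was not called without the separate-day library of day 8, at -1.14 (edgeR adjusted p = 0.247), or without the separate-day libraries of days 7 and 8, at -1.14 (edgeR adjusted p = 0.23). SLC25A13 stood at 36.6 and 51.7 TPM (day 0), 14.2 and 27.5 (day 8) and 2.29 and 0.937 (day 12) and fell by 2.23 ± 0.28 (SE, edgeR adjusted p = 1.30e-05) at the last step. Its changes up to day 8, -0.52 against day 0 and -0.50 against days 4 to 6, were not called in counts. Both were called in TPM + 1, at -1.09 and -0.94, and in counts without the all-day library of day 8, at -0.87 (edgeR adjusted p = 0.0465) and -0.88 (edgeR adjusted p = 0.0405). The second was also called in counts by the exact test and with the set of tables as a block. SLC25A13 was 77.8 and 77.8% of the pair on day 0 and 91.1 and 91.8% on day 8.

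SLC25A15, the ornithine carrier of the urea cycle, reached 37.7 and 71.3 TPM (day 3) and stood at 8.95 and 38.2 TPM (day 8), where the libraries differed widely, and at 0.286 and 0.0851 TPM (day 12). None of its changes up to day 8 passed the test, and it fell by 5.53 ± 0.80 (SE, edgeR adjusted p = 4.86e-05) from day 8 to day 12. SLC25A22, the glutamate carrier, stood at 19 and 16.9 TPM (day 0), 9.35 and 13.1 (day 4), 2.57 and 3.27 (day 8) and 0.621 and 0.351 (day 12) and fell at every step. It fell by 0.71 ± 0.17 (SE, edgeR adjusted p = 0.0109) up to days 4 to 6. It then fell by 1.31 ± 0.19 (SE, edgeR adjusted p = 7.55e-04) to day 8 and fell by 1.05 ± 0.23 (SE, edgeR adjusted p = 0.0013) to day 12. The first of these was not called without the separate-day library of day 0, at -0.58 (edgeR adjusted p = 0.179). SLC25A18, the other glutamate carrier, held 12 and 17 counts on day 12 and at most 5 in any library of days 4 to 6, and passed no test. SLC25A29, a carrier of basic amino acids, stood at 6.12 and 4.58 TPM (day 0), 1.03 and 0.541 (day 8) and 0.0129 and 0.0993 (day 12). It fell by 1.70 ± 0.61 (SE, edgeR adjusted p = 0.0436) from day 0 to day 8 and fell by 1.77 ± 0.66 (SE, edgeR adjusted p = 0.0342) from day 8 to day 12. The former call was lost when any of the 4 libraries of days 0 and 8 was left out, with changes from -2.09 to -1.37. It was also lost without the separate-day libraries of days 7 and 8, at -2.07 (edgeR adjusted p = 0.0716). The latter was lost without the separate-day library of day 8, at -1.38 (edgeR adjusted p = 0.15), of day 12, at -0.93 (edgeR adjusted p = 0.162), or of days 7 and 8, at -1.40 (edgeR adjusted p = 0.119). SLC25A44, a carrier of branched-chain amino acids, stood at 12.7 and 20.1 TPM (day 0), 8.84 and 10.9 (day 8) and 7.5 and 6.25 (day 12), and fell by 0.54 ± 0.14 (SE, edgeR adjusted p = 0.00779) from day 0 to day 8. The call did not hold without the separate-day library of day 0, at -0.49 (edgeR adjusted p = 0.0600), of day 8, at -0.53 (edgeR adjusted p = 0.0506), or of days 7 and 8, at -0.50 (edgeR adjusted p = 0.0649). Its smaller change from day 0 to days 4 to 6, -0.38, was called with all libraries but not without either day 0 library or 4 of the 6 libraries of days 4 to 6, with values from -0.43 to -0.33. At the last step it was called higher in counts (1.19), with -0.46 in TPM + 1.

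Of the 5 carriers of carboxylates and acylcarnitines, 1 rose and 1 fell in counts from day 0 to day 8 (17.7% and 19.4% of all genes). From day 8 to day 12, 1 rose and 4 fell (23.8% and 33.4% of all genes). SLC25A21, a carrier of oxodicarboxylates such as 2-oxoadipate, stood at 70.3 and 77.3 TPM (day 0), 89.8 and 78.5 (day 4), 97.7 and 90.1 (day 5), 62.7 and 90.4 (day 8) and 4.36 and 2.89 (day 12). It rose in counts by 0.45 ± 0.10 (SE, edgeR adjusted p = 0.00882) from day 0 to days 4 to 6. This did not hold without the separate-day library of day 0, at 0.42 (edgeR adjusted p = 0.121), or the all-day library of day 0, at 0.48 (edgeR adjusted p = 0.0591). From day 0 to day 8 it was called higher in counts, 0.68 (edgeR adjusted p = 8.49e-04), with 0.84 without the separate-day libraries of days 7 and 8. Neither rise was called in TPM + 1, at 0.27 up to days 4 to 6 and 0.03 up to day 8. SLC25A21 then fell by 2.99 ± 0.13 (SE, edgeR adjusted p = 6.85e-10) from day 8 to day 12, that is, 7.97-fold, and the day 12 libraries lay far below all earlier ones. SLC25A1, the citrate carrier, stood at 79.6 and 75.2 TPM (day 0), 49.1 and 54.1 (day 4), 42.5 and 36.1 (day 8) and 21.4 and 23.1 (day 12). Between day 8 and day 12 it was called higher in counts, 0.63 (edgeR adjusted p = 0.0184), and lower in TPM + 1, -0.79. The count call was lost without the all-day library of day 8, at 0.38 (edgeR adjusted p = 0.199), or that of day 12, at 0.34 (edgeR adjusted p = 0.23). SLC25A10 (dicarboxylates) stood at 48.3 and 53.8 TPM (day 0), 15.2 and 19.9 (day 8) and 0.678 and 1.08 (day 12). It fell by 0.97 ± 0.35 (SE, edgeR adjusted p = 0.0436) up to day 8 and fell by 2.83 ± 0.38 (SE, edgeR adjusted p = 2.69e-05) afterwards. The former call was lost when any of the 4 libraries of days 0 and 8 was left out, with changes from -1.04 to -0.88, and without the separate-day libraries of days 7 and 8, at -0.85 (edgeR adjusted p = 0.228). SLC25A11 (oxoglutarate and malate) stood at 54.3 and 53.5 TPM (day 0), 35.1 and 42.1 (day 8) and 9.79 and 9.58 (day 12) and fell by 0.53 ± 0.13 (SE, edgeR adjusted p = 0.00378) at the last step. SLC25A20 (carnitine and acylcarnitines) stood at 25.8 and 34.7 TPM (day 8) and 6.91 and 4.04 (day 12) and fell by 1.04 ± 0.14 (SE, edgeR adjusted p = 2.77e-05) between them.

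Of the 8 tested members without a settled substrate class, 1 rose and 1 fell in counts from day 0 to day 8 (17.7% and 19.4% of all genes). From day 8 to day 12, 4 rose and 4 fell (23.8% and 33.4% of all genes). SLC25A34 (hg38 chr1:15735088-15741392), a carrier whose substrate is not settled, stood at 0.129 and 0.0988 TPM (day 0), 0.376 and 0.301 (day 4), 0.429 and 0.395 (day 8) and 3.24 and 2.41 (day 12). Its counts went from 16 and 13 on day 0 to 534 and 485 on day 12, and the day 12 libraries lay above all others. It rose by 1.79 ± 0.37 (SE, edgeR adjusted p = 0.00489) from day 0 to days 4 to 6 and by 3.95 ± 0.42 (SE, edgeR adjusted p = 3.06e-06) from day 8 to day 12. The first call was not called without the all-day library of day 0, at 1.57 (edgeR adjusted p = 0.076). Its relative SLC25A35 stood at 5.2 and 4.6 TPM (day 0), 2.13 and 3.23 (day 8) and 0.0529 and 0 (day 12) and fell by 4.48 ± 0.66 (SE, edgeR adjusted p = 5.66e-05) at the last step. SLC25A34 was therefore 2.43 and 2.1% of the pair on day 0, 16.7 and 10.9% on day 8 and 98.4 and 100.0% on day 12. SLC25A43, another carrier without a settled substrate, stood at 26.2 and 28.5 TPM (day 0), 7.33 and 13.1 (day 1), 4.26 and 8.67 (day 2), 2.92 and 6.12 (day 4), 1.22 and 3.22 (day 8) and 0.109 and 0 (day 12). Every later library lay below the day 0 libraries, and the separate-day library lay below its partner on each of days 1 to 8. It fell by 2.50 ± 0.56 (SE, edgeR adjusted p = 0.00822) from day 0 to days 4 to 6. That call was lost without the separate-day library of day 0, at -2.52 (edgeR adjusted p = 0.0625), or the all-day one, at -2.47 (edgeR adjusted p = 0.0531). Up to day 8 it fell by 3.08 ± 0.82 (SE, edgeR adjusted p = 0.0100), a call lost without the separate-day library of day 8, at -2.63 (edgeR adjusted p = 0.0945), or the separate-day libraries of days 7 and 8, at -2.60 (edgeR adjusted p = 0.104).

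SLC25A47, known as a liver carrier, was listed at 0 counts in every library up to day 8 and held 11 and 30 counts on day 12. By library totals alone this is at least 6.80-fold higher than the limit of 3 counts over the day 8 libraries. Its call in counts (edgeR adjusted p = 0.0314) was lost without the separate-day or the all-day library of day 8 (edgeR adjusted p = 0.0904 and 0.0989). It was also lost without the separate-day library of day 12 (edgeR adjusted p = 0.0909) or those of days 7 and 8 (edgeR adjusted p = 0.0842). SLC25A48 held 22 and 55 counts on day 8 and 0 on day 12. Against the limit of 3 counts it was at least 13.5-fold lower by library totals alone. With the TMM factors, 0.805 and 0.994 on day 8 and 0.544 and 0.464 on day 12, that bound would be smaller. Its fall was called in TMM-scaled counts (edgeR adjusted p = 2.93e-04) and not in TPM + 1. SLC25A45 stood at 2.5 and 2.45 TPM (day 4), 2.43 and 3.38 (day 8) and 2.77 and 1.69 (day 12). It was called higher from days 4 to 6 to day 8, 0.72 ± 0.17 (SE, edgeR adjusted p = 0.0099). The call did not hold without the separate-day or the all-day library of day 8, at 0.81 (edgeR adjusted p = 0.0755) and 0.63 (edgeR adjusted p = 0.0662), or the separate-day libraries of days 7 and 8, at 0.81 (edgeR adjusted p = 0.0751). It was called higher at the last step in counts (1.13), with -0.28 in TPM + 1. SLC25A53 held 11 to 31 counts in the libraries before day 12 and 51 and 20 on day 12, so that the all-day library of day 12 lay within the earlier range. It was called higher at the last step, 2.17 ± 0.62 (SE, edgeR adjusted p = 0.00874). This did not hold without the separate-day library of day 12, at 1.41 (edgeR adjusted p = 0.109), or the all-day library of day 8, at 2.01 (edgeR adjusted p = 0.0629). SLC25A46, an outer membrane protein tied to mitochondrial shape, stood at 26.6 and 38.3 TPM (day 8) and 8.3 and 3.68 (day 12) and fell by 1.03 ± 0.21 (SE, edgeR adjusted p = 8.64e-04). Both tested members that resemble uncoupling proteins fell at that step, where 33.4% of all genes fell. SLC25A14 stood at 3.05 and 4.26 TPM (day 8) and 0.51 and 0.12 (day 12) and fell by 1.94 ± 0.39 (SE, edgeR adjusted p = 7.88e-04). SLC25A30 stood at 0.412 and 0.471 TPM (day 8) and 0.0983 and 0.00955 (day 12) and fell by 1.61 ± 0.58 (SE, edgeR adjusted p = 0.0294). That call was lost without the separate-day or the all-day library of day 8, at -1.62 (edgeR adjusted p = 0.0649) and -1.62 (edgeR adjusted p = 0.072). It was also lost without the all-day library of day 12, at -0.80 (edgeR adjusted p = 0.108), or the separate-day libraries of days 7 and 8, at -1.61 (edgeR adjusted p = 0.0763).

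**Figure D1:**
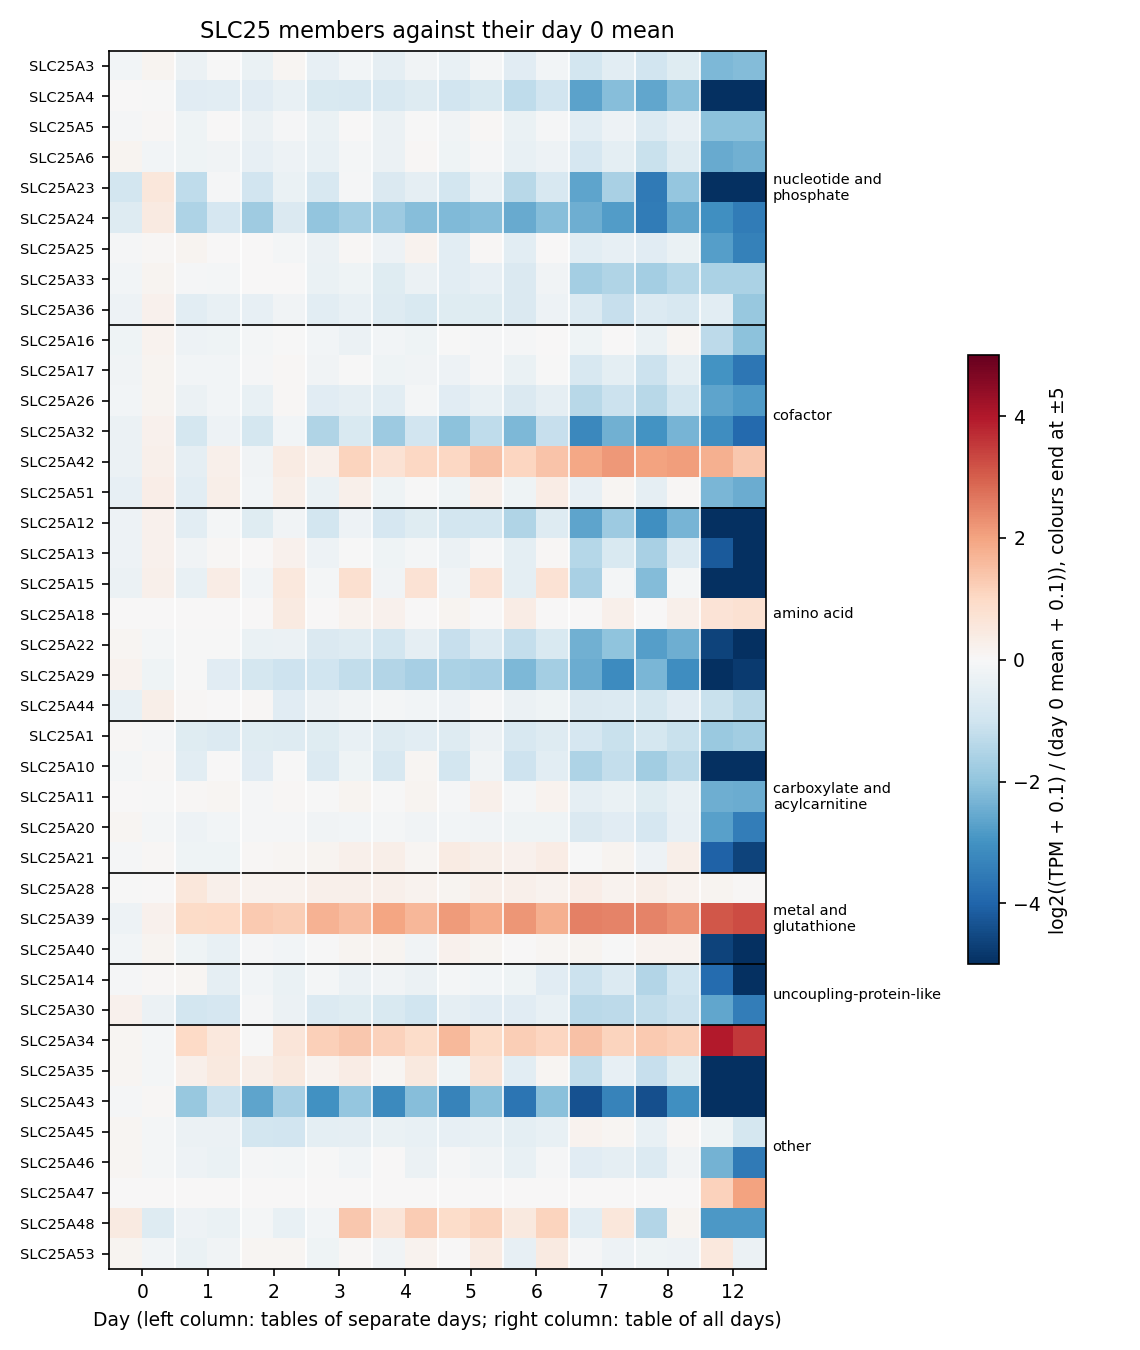
Log2 of TPM + 0.1 over the day 0 mean of the same member (colour, red above and blue below, ending at 5 in either direction) for 40 tested members (rows, grouped by what they carry) in the 20 libraries (columns, by day). Rows of SLC25A39, SLC25A42 and SLC25A34 are red after the early days, and most rows are darkest blue in the day 12 columns.

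The last step held the most calls of the 4 comparisons on either scale, among the members as among all genes tested. Of all genes, 23.8% were higher and 33.4% lower there in counts, and 7.87% and 53.2% in TPM + 1. Called higher in counts and in TPM were SLC25A34, SLC25A39 and SLC25A47. Called lower on both were 19 members: SLC25A4, SLC25A10, SLC25A11, SLC25A12, SLC25A13, SLC25A14, SLC25A15, SLC25A17, SLC25A20, SLC25A21, SLC25A22, SLC25A23, SLC25A25, SLC25A29, SLC25A30, SLC25A35, SLC25A40, SLC25A43 and SLC25A46. Of the 12 members called higher in counts, 8 had a change below 0 in TPM + 1, among them SLC25A1, SLC25A28, SLC25A33, SLC25A36, SLC25A42, SLC25A44 and SLC25A45. All 32 members called at this step moved the same way within the separate-day tables and within the all-day table, as did all 11, 9 and 19 called members of the other comparisons. The calls come from a fit of these same libraries, which favours such agreement, so it is no separate support for them.

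Carriers of the same protein family under other symbols, or kept out by the rule, were measured in the same libraries. SLC25A37 (mitoferrin-1) stood at 335 and 385 TPM (day 0), 2134 and 1719 (day 8) and 2699 and 2005 (day 12). SLC25A38, a carrier needed for heme synthesis, stood at 52.4 and 50.6 TPM (day 0), 70.4 and 79.8 (day 8) and 40.4 and 38.9 (day 12), so that in TPM it was lowest on day 12. UCP2, an uncoupling protein, stood at 319 and 386 TPM (day 0), 943 and 749.8 (day 8) and 556 and 426 (day 12). In counts, both SLC25A38 and UCP2 were called higher from day 8 to day 12, unlike in TPM. The changes were 0.52 ± 0.14 (SE, edgeR adjusted p = 0.00692) for SLC25A38 and 0.63 ± 0.16 (SE, edgeR adjusted p = 0.00486) for UCP2. Of the 7 genes in this list (UCP1, UCP2, UCP3, MTCH1, MTCH2, SLC25A37 and SLC25A38), 6 were tested. From day 0 to day 8, 5 of them rose in counts, where 17.7% of all genes tested rose, and MTCH2 fell by 0.57 ± 0.17 (SE, edgeR adjusted p = 0.0177). From day 0 to days 4 to 6, 3 of the 6 rose and none fell, where 7.38% and 9.22% of all genes did. From day 8 to day 12, 5 of the 6 rose and 1 fell in counts, where 23.8% and 33.4% of all genes did. Of the 13 genes that import and insert carriers (TOM receptors and pore, small TIM chaperones, the TIM22 complex), none rose and 6 fell from day 0 to day 8 (17.7% and 19.4% of all genes), among them TOMM40, the pore of the outer membrane translocase, which fell by 1.11 ± 0.18 (SE, edgeR adjusted p = 3.59e-04). Between day 8 and day 12, 3 of the 13 rose and 3 fell in counts (23.8% and 33.4% of all genes). AGK, a lipid kinase that is also a TIM22 subunit, stood at 2.6 and 6.27 TPM (day 8) and 0.107 and 0.0722 (day 12).

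Of the 14 pyruvate, sideroflexin, calcium uptake and pore genes, 4 rose and 5 fell from day 0 to day 8 (17.7% and 19.4% of all genes), and none rose and 10 fell from day 8 to day 12 (23.8% and 33.4% of all genes). These differences from all genes were not tested. MPC2, a subunit of the mitochondrial pyruvate carrier, rose by 1.87 ± 0.17 (SE, edgeR adjusted p = 4.99e-06) up to day 8 and fell by 1.00 ± 0.17 (SE, edgeR adjusted p = 1.52e-04) afterwards. The changes of its partner MPC1 were -0.02 ± 0.14 (SE, edgeR adjusted p = 0.945) and -0.56 ± 0.14 (SE, edgeR adjusted p = 0.00336). VDAC1, an outer membrane channel, stood at 226 and 245 TPM (day 0), 36.2 and 48.8 (day 8) and 4.7 and 4.91 (day 12). All 3 inner membrane ABC transporters fell at the last step (33.4% of all genes fell), among them ABCB10, which stabilises mitoferrin-1. ABCB10 stood at 252 and 355 TPM (day 8) and 67.3 and 26.2 (day 12) and fell by 1.30 ± 0.22 (SE, edgeR adjusted p = 2.09e-04), after a rise of 1.42 ± 0.22 (SE, edgeR adjusted p = 3.37e-04) from day 0 to day 8.

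Levels are sums over the transcripts that the authors' tables list, and the division of reads among them is an estimate. For SLC25A39, 19 transcripts were listed, of which NM_001143780 held 47% to 66.7% of the TPM in every library, and part of the rest lay in non-coding forms such as NR_159401 (11.4% to 18.9%). For SLC25A3, NM_002635 held 64.6% to 90.7%. For SLC25A42, the share of NM_178526 ranged from 5.58% to 83.9%. SLC25A6 lies in a region shared by the X and Y chromosomes and was entered under both, with 50.1% and 49.9% of its mean TPM, and the sum was used. Annotated look-alike genes took at most 0.0210% of the counts of SLC25A5 and its copies, and 0.314% to 1.72% of those of SLC25A51 and its copies. Whether reads were counted by strand is not given in the sources used here, which bears on members that overlap an antisense gene. SLC25A25-AS1 held 122 to 714 counts, more than SLC25A25 itself on day 12 (343 and 255 counts, against 714 and 663), while SLC25A34-AS1 held at most 1 count.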

How the data were processed

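HUDEP-2 cells were profiled by RNA-seq on 10 days, with 2 libraries a day (TruSeq Stranded mRNA kit). The submitters' processing notes name hg38, Trimmomatic 0.38, HISAT2 2.1.0 and StringTie 2.1.3b. How reads shared by transcripts were divided is not given in the sources used here. The authors deposited whole-number, not normalized read counts per transcript, and TPM, which the authors corrected for transcript length and scaled to a common sum. Of 63 value columns, 23 were not used (those in FPKM, and a day 0 column set deposited with the day 12 library).

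Counts and TPM were summed by gene symbol. edgeR 4.0.16 (R 4.3.3) was fitted to all 20 libraries with a coefficient for each day (filterByExpr, TMM, glmQLFit, glmQLFTest), leaving 16784 genes over which Benjamini-Hochberg adjusted p-values were computed (threshold 0.05). This test replaced the exact test of the study, which is among the alternatives. The SE of a change is its size divided by the square root of F. Alternatives were the exact test, DESeq2 1.42.0, limma 3.58.1 on log2(TPM + 1) and log2(TPM + 0.1), other scalings and filters, the compared days alone, a block for the set of tables, and libraries left out. On simulated data for day 8 against day 0, with 200 of 16784 genes changed 4-fold, 86.9% were recovered and 2.27% of calls were false. The simulation gave all genes the same dispersion and as many rises as falls. In the data 17.7% of genes were called higher and 19.4% lower, so these rates need not hold there.

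The members and lists were chosen with earlier results of these data known. Named are all ADP/ATP, phosphate, iron, glutathione and ATP-Mg/phosphate carriers, up to 4 members with the largest change in each direction per comparison (called, without overlap), and the 8 most abundant. The remaining tested members were named after their values were seen, and the result of 1 member is not reported here. RefSeq promoters were found for 39 of 46 members.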

Additional observations from a re-analysis of the deposited data

How the results depend on the processing

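No paired analysis was possible because the table columns carry no replicate numbers, so the labels' numbers could not be used. The set of tables, which holds 1 library of each day, could be used as a block instead. With it, 11 members instead of 7 were lower at days 4 to 6 against day 0 and 10 instead of 5 at day 8 against days 4 to 6. The exact test of edgeR gave 11 lower at the first of these. With no filter beyond 1 count, 2 members instead of 4 were higher at day 8 against days 4 to 6. Without the separate-day libraries of days 7 and 8 that comparison gave 1 higher and 2 lower, and day 8 against day 0 gave 6 lower in place of 13. Limma on TPM + 1 gave 2 higher and 22 lower at day 8 against days 4 to 6, 3 higher at day 12 against day 8, and 3 higher and 24 lower at day 8 against day 0. With TPM + 0.1 these were 1 and 17, 4, and 3 and 23. DESeq2, upper-quartile scaling, TMM without globin or ribosomal RNA genes, a minimum of 10 counts in every library and the compared days alone kept each count within 1.5 times.

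Single libraries moved the counts as follows. At days 4 to 6 against day 0, 2 to 4 members were higher and 1 to 6 lower, fewest without the separate-day library of day 0 (2 and 1) and 2 and 2 without the all-day one. At day 8 against days 4 to 6, 1 to 4 were higher and 2 to 7 lower, fewest without the separate-day library of day 8. At day 12 against day 8, 6 to 10 were higher, fewest without the all-day library of day 8, and 18 to 19 lower. At day 8 against day 0, 5 to 6 were higher and 6 to 12 lower, fewest without the separate-day library of day 8. Over all days 30 to 34 members varied. At day 8 against days 4 to 6, SLC25A23 gained a call without the all-day library of day 8, at -2.30, and under 8 other alternatives. SLC25A24 also gained one without that library, but against a lone day 8 library of 0 counts, so that its fold is set by the prior count of the fit and is not given.

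Among the members described, 39 of 320 single values in TPM and 103 of 2509 in counts changed sign against the counts as reported with no call in either fit. Changes of sign with a call in either fit were all in TPM. At day 8 against days 4 to 6 in TPM + 1 they were SLC25A1 (-0.38), SLC25A5 (-0.41) and SLC25A20 (-0.42). At day 12 against day 8 in TPM + 1 and TPM + 0.1 they were SLC25A1 (-0.79 and -0.81), SLC25A28 (-0.13 and -0.14), SLC25A33 (-0.014 and -0.016), SLC25A36 (-0.42 and -0.47), SLC25A42 (-0.47 and -0.49), SLC25A44 (-0.46 and -0.51) and SLC25A45 (-0.28 and -0.39). At day 8 against day 0 they were SLC25A5 (-0.55 in both), SLC25A11 (-0.48 and -0.49) and SLC25A16 (-0.093 and -0.11). The part of the globin share in these reversals was not tested. With 2 libraries a day, differences within the spread of a pair were not detectable, and members under 3 counts could not be compared.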
